A study of Sus scrofa with 14 samples.

Results

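Homeobox and T-box genes encode DNA-binding proteins that give embryonic cells their position and identity. The genes described here are those of 15 families, namely the SIX-family genes and all whose names start with LHX, DLX, MSX, EYA, PITX, TBX, MEOX, IRX, EN, OTX, NKX, GBX, MEIS or PBX followed by a digit. The rule was applied to the gene names of the deposited expression table and found 59 of its 15031 genes. The SIX-, *DLX*, *IRX* and *LHX* families held 6 genes each and the *TBX* family held 7. The EYA proteins are cofactors of the SIX-family homeobox proteins and carry no homeobox themselves. *LMX1B* and the *HOX* clusters were not taken in.

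Several of these families divide the early embryo between them. *OTX* genes mark the forebrain and midbrain, *GBX2* marks the hindbrain side of the border between midbrain and hindbrain, and the engrailed genes *EN1* and *EN2* are active on both sides of it. *TBX6* and the *MEOX* genes belong to the paraxial mesoderm and the somites, from which skeletal muscle forms, and the SIX-family proteins with their EYA partners act in muscle precursors upstream of the myogenic regulators. The *DLX*, *MSX* and *IRX* families work in several places, among them the neural plate border, the neural tube, the head skeleton and the limb.

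The study made muscle-like cells from pig pre-gastrulation epiblast stem cells (pgEpiSCs) and measured poly(A) RNA in 14 libraries, all from wild-type cells. Muscle progenitor-stage cultures (pgEpiSCs-MPCs, 2 libraries) were collected on day 8 and muscle cell-stage cultures (pgEpiSCs-MCs, 3 libraries) on day 44 of a serum-free protocol that opened with CHIR99021, an activator of WNT signalling, and SB431542, a blocker of activin and TGF-β receptors, and went on with LDN193189, which blocks BMP receptors, and with HGF, IGF-1 and FGF2. The stem cells were pgEpiSCs at a high passage (pgEpiSCs-high, passage 200, 3 libraries) and at a low passage (pgEpiSCs-Low, passage 30, 3 libraries), both taken on day 0 and grown on mouse embryonic fibroblast feeders in 3i/LAF medium (CHIR99021, IWR-1-endo, WH-4-023, LIF, activin A and FGF2). Muscle stem cells from the longest dorsal muscle of piglets aged 1 week, switched to differentiation medium with horse serum for 4 days, gave the primary muscle cells (MPC-Dif, 3 libraries). The feeders were allowed to settle out before the pgEpiSCs were seeded for differentiation, and mouse RNA in the pgEpiSC libraries was not measured here. The MPC-Dif differ from the pgEpiSCs-MCs in tissue source, medium and age together, so these factors cannot be told apart.

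Values are in TPM, a transcript abundance that is scaled for gene length and adds up to the same total in each library, so the read depth behind a value is unknown. A listed 0 or low value may be a missed level, and that level need not be low, since counting or annotation can miss a gene. *GAPDH*, which every cell uses, was listed at only 0.492 to 10.2 TPM over the 14 libraries, and the cause was not tested. The study's methods call the replicates biological without saying which cultures or animals gave each library, so a p-value here measures the spread between these libraries only. The pluripotency markers summed to 4983 to 5764 TPM in the 6 pgEpiSC libraries, against 97.6 to 199 TPM in pgEpiSCs-MPCs and pgEpiSCs-MCs. *LEFTY2* alone averaged 3422 TPM in pgEpiSCs-high and 3831 TPM in pgEpiSCs-Low. *SOX2* did not fall with the sum, at means of 74.5 TPM in pgEpiSCs-high, 84.0 TPM in pgEpiSCs-Low, 89.4 TPM in pgEpiSCs-MPCs and 118 TPM in pgEpiSCs-MCs. Markers of the muscle fibre summed to 247 to 288 TPM in pgEpiSCs-MCs and to 581 to 644 TPM in MPC-Dif. Other cell types were present as well. The 8 neuron markers in the table summed to 586 to 662 TPM in pgEpiSCs-MCs, against 2.25 to 4.08 TPM in MPC-Dif, where *SNAP25* and *SYT1* were listed at 0. In pgEpiSCs-MPCs the 6 neural progenitor markers summed to 1828 to 1875 TPM, against 170 to 257 TPM in pgEpiSCs. The part of these other cells in any result below was not tested, and in bulk RNA fewer cells of a type and less RNA per cell cannot be told apart.

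For the genes that the results turn on most, the 250 bases before the annotated start of the gene are shown, read from the Sscrofa11.1 genome with RefSeq gene starts. Capitals mark matches, on either strand, to TAATTA (a homeodomain core), TAATCC (bound by OTX-type homeodomains), TGACAG (bound by MEIS proteins), AGGTGTGA (a T-box half-site), CTTTGAT (bound by TCF/LEF, the WNT effectors), TATAAA (the TATA box) and CACGTG (an E-box). TAATTA and TAATCC share their first letters. The first 4 are genes of the midbrain and hindbrain border that were low in pgEpiSCs and high in pgEpiSCs-MPCs.
*EN2* (chr18:2788442-2788691, minus strand): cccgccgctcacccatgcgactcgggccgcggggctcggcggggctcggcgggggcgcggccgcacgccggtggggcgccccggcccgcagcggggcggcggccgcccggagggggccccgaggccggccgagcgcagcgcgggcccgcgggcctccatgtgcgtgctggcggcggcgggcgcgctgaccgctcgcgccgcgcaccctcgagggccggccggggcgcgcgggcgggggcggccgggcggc
*OTX1* (chr3:78903046-78903295, minus strand): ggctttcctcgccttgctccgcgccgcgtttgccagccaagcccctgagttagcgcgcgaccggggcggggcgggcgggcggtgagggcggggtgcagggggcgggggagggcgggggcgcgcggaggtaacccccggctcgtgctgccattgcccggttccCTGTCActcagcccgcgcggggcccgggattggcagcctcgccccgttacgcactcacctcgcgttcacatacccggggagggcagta
*EN1* (chr15:24408378-24408627, minus strand): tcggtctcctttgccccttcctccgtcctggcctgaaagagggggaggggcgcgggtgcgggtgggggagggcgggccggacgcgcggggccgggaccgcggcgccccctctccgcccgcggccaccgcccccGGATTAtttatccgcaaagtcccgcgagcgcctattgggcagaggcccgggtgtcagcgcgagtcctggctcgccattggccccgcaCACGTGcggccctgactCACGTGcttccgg
*GBX2* (chr15:136032569-136032818, minus strand): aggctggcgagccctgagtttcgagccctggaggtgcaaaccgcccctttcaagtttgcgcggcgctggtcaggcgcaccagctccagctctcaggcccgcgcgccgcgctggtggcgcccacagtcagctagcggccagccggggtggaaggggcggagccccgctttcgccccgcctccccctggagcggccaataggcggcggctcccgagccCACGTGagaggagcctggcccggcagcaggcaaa
The window of *MEOX2* is shown beside them, since of the 59 genes this one stood furthest below MPC-Dif in pgEpiSCs-MCs.
*MEOX2* (chr9:85009940-85010189, minus strand): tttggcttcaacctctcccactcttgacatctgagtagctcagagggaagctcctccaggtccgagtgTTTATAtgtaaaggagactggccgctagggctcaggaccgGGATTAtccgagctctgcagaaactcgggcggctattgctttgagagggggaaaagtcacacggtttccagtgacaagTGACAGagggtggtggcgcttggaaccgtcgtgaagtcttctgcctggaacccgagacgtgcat
The *EN2* window held none of the 7 motifs and was 89.2% G and C. *EN1* held the OTX-type motif and the E-box, *OTX1* the MEIS motif and *GBX2* the E-box. *MEOX2* held the OTX-type motif, the MEIS motif and the TATA box. Of all 19556 promoters of protein-coding genes, 5.40% held TAATCC, 10.7% TGACAG, 9.77% TATAAA, 6.39% CACGTG, 3.73% TAATTA, 2.09% CTTTGAT and 0.655% AGGTGTGA. Among the 59 genes, 4 held TAATCC, 7 TGACAG, 4 TATAAA, 5 CACGTG, 3 TAATTA, 1 CTTTGAT and none AGGTGTGA. The median promoter of the 59 genes had 66.0% G and C, against 57.6% over all promoters. A match to these letters is a description and not a binding site.

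All 59 genes had more than 0.5 TPM in at least 50% of the libraries of some group and entered the test with 14957 genes in all. The number of them above 0.5 TPM was 40 and 41 in pgEpiSCs-MPCs and 47 to 48 in pgEpiSCs-MCs, against 19 to 25 in pgEpiSCs, and it was 40 to 41 in MPC-Dif. Their summed level was 1142 and 1212 TPM in pgEpiSCs-MPCs and 950 to 1010 TPM in pgEpiSCs-MCs, against 541 to 557 TPM in pgEpiSCs-high and 689 to 735 TPM in pgEpiSCs-Low. In the stem cells most of that sum came from *OTX2* and *MEIS3*. Without these 2 genes the sum was 832 and 894 TPM in pgEpiSCs-MPCs and 688 to 738 TPM in pgEpiSCs-MCs, against 204 to 255 TPM in pgEpiSCs. Leaving out the genes that led the stem-cell sum widens this contrast. The sum in MPC-Dif was 612 to 628 TPM with all 59 genes and 553 to 575 TPM without these 2.

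Each gene was placed with the group of its highest mean, so the sets given next share no gene by construction. In the heat map of levels, 15 of the 59 genes had both pgEpiSCs-MPCs libraries above all 12 others (18.9% of all tested genes did), 16 had the 3 pgEpiSCs-MCs libraries above all others (19.5%) and 16 had the 3 MPC-Dif libraries above all others (18.7%). This was the case for 3 genes in pgEpiSCs-Low (2.96%), among them *OTX2* and *LHX5*, and for *SIX4* alone in pgEpiSCs-high (4.17%). The MPC set was led by *EN2*, *OTX1*, *PBX3* and *MSX2* and the MC set by *MEIS3*, *IRX3* and *TBX6*, while the MPC-Dif set included *MEOX2* and *DLX4*.

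**Figure D1:**
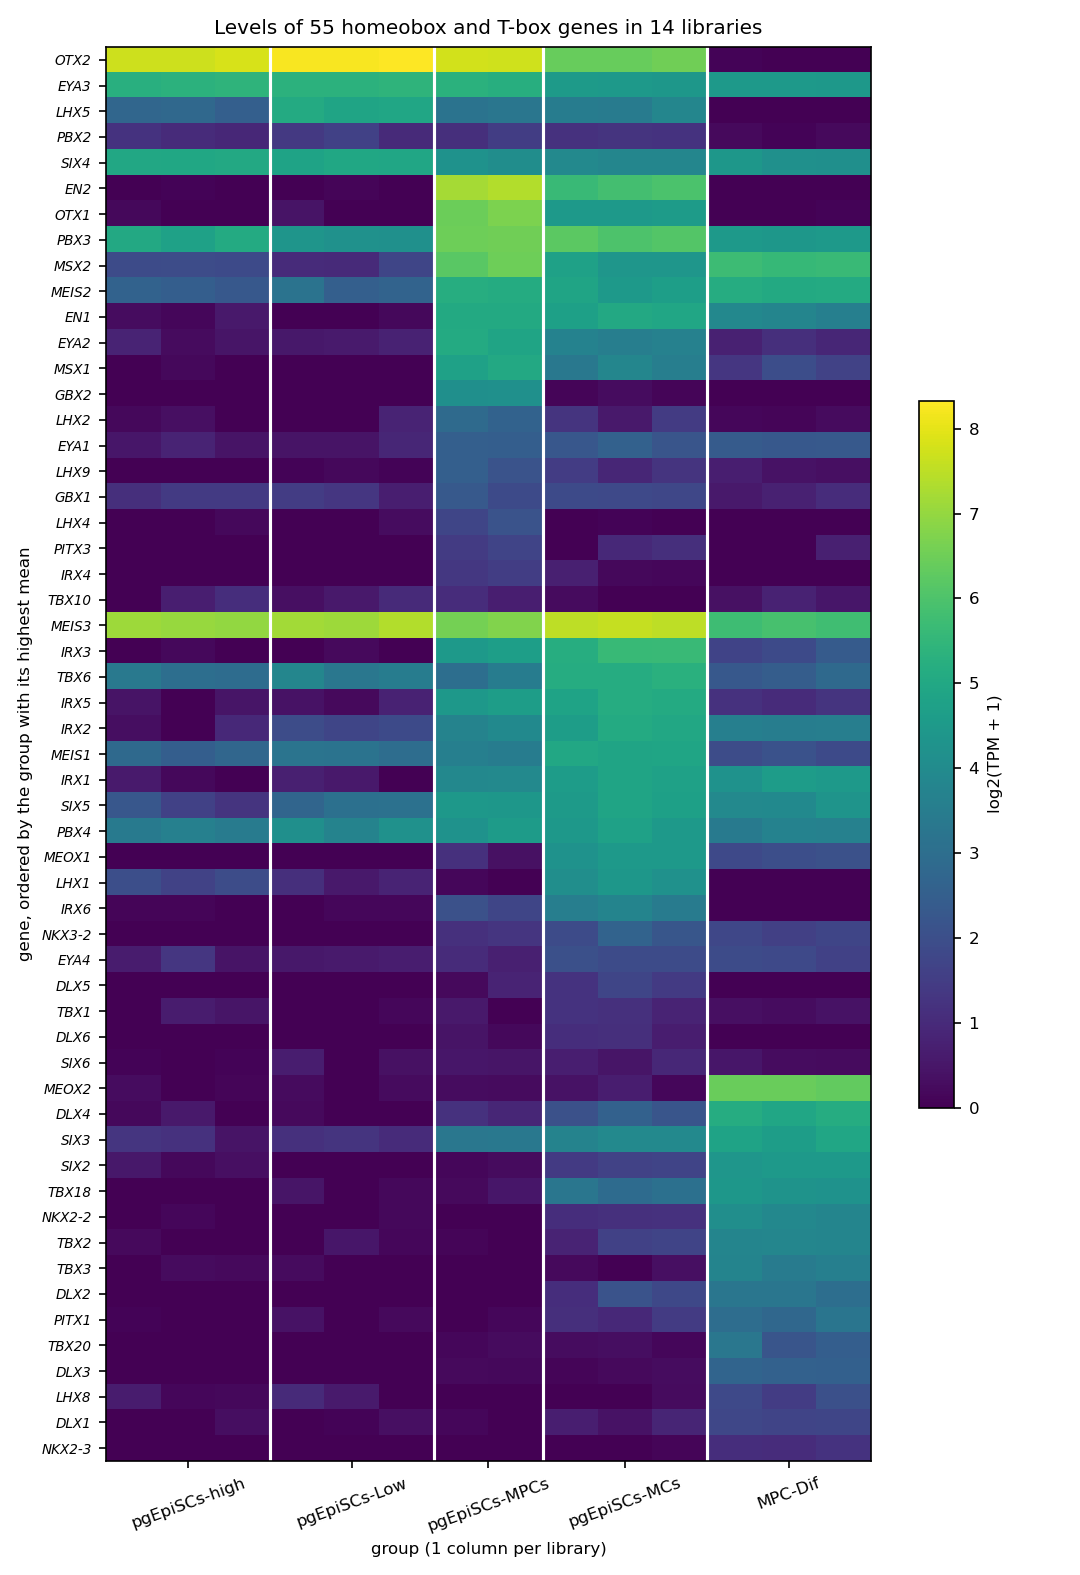
Level of 55 of the 59 genes (rows, log2(TPM + 1) as colour) in each of the 14 libraries (columns, grouped by white lines), with genes ordered by the group of their highest mean. *EN2*, *OTX1* and *EN1* are dark in all 6 pgEpiSC libraries and bright in both pgEpiSCs-MPCs libraries, and *MEOX2* is bright in MPC-Dif alone.

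Differences between groups were tested with limma on log2(TPM + 1), with p-values adjusted over all 14957 genes and a gene called below 0.05. On this scale the change of a gene with low TPM is understated, and where a group is listed at 0 in every library only levels and p-values are given. In pgEpiSCs-MPCs against pgEpiSCs, 32 of the 59 genes were higher (47.5% of all tested genes were called higher) and 6 were lower (21.4%). In pgEpiSCs-MCs against pgEpiSCs-MPCs, 27 were higher (34.5%) and 18 lower (36.1%). In pgEpiSCs-MCs against pgEpiSCs, 44 were higher (50.8%) and 4 lower (30.9%). The median difference in log2(TPM + 1) of the 59 genes was 0.51, 0.19 and 1.15 in these comparisons in turn, beside 0.24, -0.0054 and 0.27 for all tested genes. Calls over all genes depended on the scaling. The share of calls that were lower was 31.0% for pgEpiSCs-MPCs against pgEpiSCs with TPM as deposited, 49.4% after median-of-ratios scaling and 53.6% after quantile normalization. For pgEpiSCs-MCs against pgEpiSCs it was 37.8%, 45.6% and 55.9% in the same order. Among the 59 genes the first comparison then had 30 and 27 higher and 7 and 8 lower, and the second 44 and 36 higher and 6 and 9 lower.

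*EN2* and *OTX1* had the largest differences of the 59 genes between pgEpiSCs-MPCs and pgEpiSCs. Of the 6 *EN*, *OTX* and *GBX* genes, 5 were higher in pgEpiSCs-MPCs (47.5% of all tested genes were) and 1, *OTX2*, was lower (21.4%). *EN2* was at 147 and 165 TPM in pgEpiSCs-MPCs, against 0, 0.0640 and 0 TPM in pgEpiSCs-high and 0, 0.0750 and 0 TPM in pgEpiSCs-Low, a difference in log2(TPM + 1) of 7.26 ± 0.11 (SE, adjusted p = 1.93e-15). It was the gene with the second highest level of the 59 at this stage, after *OTX2*. *OTX1*, which works with *OTX2* in the developing brain, was at 86.8 and 103 TPM in pgEpiSCs-MPCs, against 0.142, 0 and 0 TPM in pgEpiSCs-high and 0.369, 0 and 0 TPM in pgEpiSCs-Low (difference 6.47 ± 0.13 SE, adjusted p = 3.73e-14). *EN1* was at 32.5 and 32.1 TPM in pgEpiSCs-MPCs, against 0.225, 0.116 and 0.497 TPM in pgEpiSCs-high and 0, 0 and 0.138 TPM in pgEpiSCs-Low (difference 4.86 ± 0.13 SE, adjusted p = 4.8e-13). *GBX2* was at 16.8 and 17.0 TPM in pgEpiSCs-MPCs and was listed at 0 in all 6 pgEpiSC libraries (adjusted p = 8.42e-14). For none of these 4 genes did the groups overlap, which was also so for 64.7% of all tested genes. *GBX1* moved less, with 3.98 and 2.69 TPM in pgEpiSCs-MPCs, against means of 1.51 TPM in pgEpiSCs-high and 1.31 TPM in pgEpiSCs-Low (difference 0.85 ± 0.20 SE, adjusted p = 0.00148), and its call was lost after quantile normalization (adjusted p = 0.068).

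At the muscle cell stage this set separated. *GBX2* was all but gone, at 0.0940, 0.198 and 0.0820 TPM in pgEpiSCs-MCs, against 16.8 and 17.0 TPM in pgEpiSCs-MPCs (difference -3.99 ± 0.10 SE, adjusted p = 6.67e-13). *OTX1* was at 21.1, 21.7 and 22.9 TPM in pgEpiSCs-MCs and so lower than in pgEpiSCs-MPCs (difference -2.06 ± 0.15 SE, adjusted p = 1.95e-08), and *EN2* was lower as well, at 49.4, 56.2 and 62.4 TPM (difference -1.47 ± 0.12 SE, adjusted p = 6.66e-08). *EN1* was at 25.6, 31.4 and 29.5 TPM in pgEpiSCs-MCs, and its difference from pgEpiSCs-MPCs of -0.16 ± 0.14 (SE, adjusted p = 0.328) did not pass the test. All 4 genes thus ended at different fractions of their level on day 8, with *EN1* keeping most of it and *GBX2* least. MPC-Dif lacked most of the set: *EN2* and *GBX2* were listed at 0 in its 3 libraries and *OTX1* at 0, 0 and 0.0490 TPM. *EN1* was the exception, at 13.9, 12.9 and 11.2 TPM in MPC-Dif, still below the 25.6, 31.4 and 29.5 TPM of pgEpiSCs-MCs (difference 1.13 ± 0.13 SE, adjusted p = 1.64e-06).

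*OTX2*, which is active in the epiblast and later in the anterior brain, had the highest level of all 59 genes in pgEpiSCs. It was at 205, 205 and 225 TPM in pgEpiSCs-high, 303, 305 and 321 TPM in pgEpiSCs-Low, 215 and 212 TPM in pgEpiSCs-MPCs and 82.4, 83.5 and 91.4 TPM in pgEpiSCs-MCs. Its level in pgEpiSCs-MPCs lay within the range of pgEpiSCs-high. Against both passages together it was called lower in pgEpiSCs-MPCs (difference -0.26 ± 0.058 SE, adjusted p = 0.00122), but against pgEpiSCs-high alone the difference was 0.014 (adjusted p = 0.875), so this call rested on the low-passage libraries. In the later step pgEpiSCs-MCs were lower than pgEpiSCs-MPCs by a difference of -1.31 ± 0.065 (SE, adjusted p = 4.25e-10), with no overlap (79.7% of all tested genes had none). In MPC-Dif it was listed at 0.0520, 0 and 0 TPM, and the difference of 6.41 ± 0.058 (SE, adjusted p = 2.42e-17) was the largest of the 59 genes between pgEpiSCs-MCs and MPC-Dif.

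**Figure D2:**
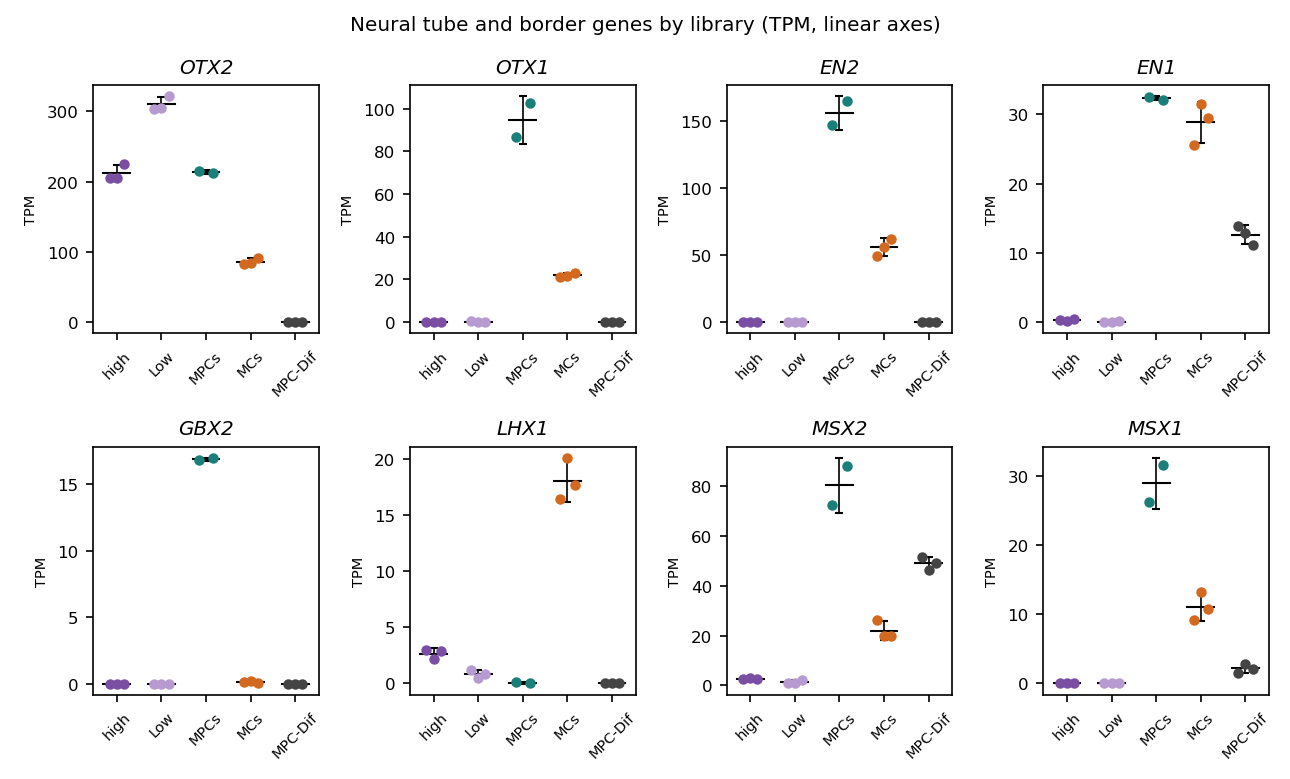
TPM of 8 neural tube and neural plate border genes in each library (points; high and Low are pgEpiSCs-high and pgEpiSCs-Low, MPCs and MCs the pgEpiSC-derived stages), with the group mean as a line and its SD as error bars. *GBX2* stands at 16.8 and 17.0 TPM in pgEpiSCs-MPCs and near 0 elsewhere, while *LHX1* is highest in pgEpiSCs-MCs.

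The *MSX* genes, which respond to BMP signals at the neural plate border and in limb buds, rose and then fell. *MSX2* was at 72.7 and 88.3 TPM in pgEpiSCs-MPCs, against 2.71, 2.79 and 2.69 TPM in pgEpiSCs-high and 1.05, 0.982 and 2.33 TPM in pgEpiSCs-Low (difference 4.77 ± 0.17 SE, adjusted p = 1.11e-11). In pgEpiSCs-MCs it was at 26.4, 20.0 and 19.7 TPM, lower than in pgEpiSCs-MPCs (difference -1.83 ± 0.19 SE, adjusted p = 1.02e-06) and lower than the 51.6, 46.6 and 49.4 TPM of MPC-Dif (difference -1.13 ± 0.17 SE, adjusted p = 2.86e-05). *MSX1* was at 26.3 and 31.5 TPM in pgEpiSCs-MPCs and was listed at 0 in 5 of the 6 pgEpiSC libraries, with 0.128 TPM in the other (difference 4.87 ± 0.16 SE, adjusted p = 4.98e-12). Its level was 9.17, 13.3 and 10.8 TPM in pgEpiSCs-MCs, below pgEpiSCs-MPCs (difference -1.32 ± 0.18 SE, adjusted p = 1.59e-05) but above the 1.51, 2.89 and 2.12 TPM of MPC-Dif (difference 1.94 ± 0.16 SE, adjusted p = 5.56e-08). The 2 genes therefore stood in opposite order between pgEpiSCs-MCs and MPC-Dif.

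The LIM homeobox genes, which specify neuron classes and parts of the brain, split between the stages. *LHX1*, which marks the organizer of the head and later interneurons of the hindbrain and spinal cord, was at 16.4, 20.1 and 17.6 TPM in pgEpiSCs-MCs, against 0.116 and 0 TPM in pgEpiSCs-MPCs, the largest rise of the 59 genes in this step (difference 4.17 ± 0.17 SE, adjusted p = 4.28e-11). It had been lower in pgEpiSCs-MPCs than in pgEpiSCs, where pgEpiSCs-high held 2.98, 2.13 and 2.86 TPM and pgEpiSCs-Low 1.18, 0.469 and 0.796 TPM (difference -1.27 ± 0.15 SE, adjusted p = 3.17e-06). *LHX4*, a gene of the pituitary and of motor neurons, did the reverse, with 0, 0.0580 and 0 TPM in pgEpiSCs-MCs, against 2.37 and 3.41 TPM in pgEpiSCs-MPCs (difference -1.92 ± 0.14 SE, adjusted p = 2.13e-08). *LHX2*, a gene of the forebrain and eye, was at 1.37, 0.485 and 1.71 TPM in pgEpiSCs-MCs, against 6.44 and 5.17 TPM in pgEpiSCs-MPCs (difference -1.68 ± 0.27 SE, adjusted p = 6.1e-05). *LHX9*, its close relative, was at 1.79, 0.876 and 1.37 TPM in pgEpiSCs-MCs, against 4.72 and 3.39 TPM in pgEpiSCs-MPCs (difference -1.11 ± 0.17 SE, adjusted p = 4.38e-05). In MPC-Dif, *LHX1*, *LHX4* and *LHX5* were listed at 0 in every library, while *LHX8*, a gene of cholinergic neurons and oocytes, was highest there at 2.56, 1.82 and 3.13 TPM.

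*LHX5*, a gene of the anterior neural plate, separated the 2 passages. It was at 5.79, 6.03 and 4.69 TPM in pgEpiSCs-high, against 33.5, 28.1 and 29.3 TPM in pgEpiSCs-Low, the largest difference of the 59 genes between passages (-2.27 ± 0.12 SE, adjusted p = 5.34e-08). The derived cells lay between them, with 7.96 and 8.57 TPM in pgEpiSCs-MPCs and 10.4, 10.00 and 13.3 TPM in pgEpiSCs-MCs. Its direction during differentiation therefore depended on the passage it was set against. The difference of pgEpiSCs-MPCs from both passages was -0.62 ± 0.12 (SE, adjusted p = 0.000436), but from pgEpiSCs-high alone it was 0.52 (adjusted p = 0.00406). From pgEpiSCs-high alone, pgEpiSCs-MCs were also higher, by 0.91 (adjusted p = 8.8e-06). Which passage the differentiated cultures had started from was not used in the test.

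All 6 Iroquois genes (*IRX1* to *IRX6*), which pattern the neural tube, heart and limb, were higher in pgEpiSCs-MPCs than in pgEpiSCs, with a median difference of 3.13. Of all tested genes 47.5% were higher, with a median of 0.24. *IRX3* was at 21.1 and 24.2 TPM in pgEpiSCs-MPCs, against 0, 0.129 and 0 TPM in pgEpiSCs-high and 0, 0.151 and 0 TPM in pgEpiSCs-Low (difference 4.50 ± 0.18 SE, adjusted p = 2.99e-11). *IRX5*, its neighbour, was at 20.8 and 23.7 TPM, against 0.361, 0 and 0.399 TPM in pgEpiSCs-high and 0.313, 0.145 and 0.740 TPM in pgEpiSCs-Low (difference 4.15 ± 0.17 SE, adjusted p = 4.69e-11). *IRX1* was at 13.9 and 14.04 TPM and *IRX2* at 12.4 and 14.3 TPM in pgEpiSCs-MPCs, with differences of 3.56 and 2.71. *IRX4* was the weakest of the family, at 1.56 and 1.82 TPM in pgEpiSCs-MPCs and listed at 0 in all pgEpiSCs (adjusted p = 3.99e-07).

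At the muscle cell stage 5 of the 6 were higher again than in pgEpiSCs-MPCs (34.5% of all tested genes were) and *IRX4* was lower (36.1%). *IRX6* made the largest step, at 10.8, 12.5 and 10.1 TPM in pgEpiSCs-MCs, against 3.15 and 2.33 TPM in pgEpiSCs-MPCs (difference 1.70 ± 0.13 SE, adjusted p = 3.51e-08). *IRX3* was at 35.3, 47.4 and 49.7 TPM in pgEpiSCs-MCs, against 21.1 and 24.2 TPM in pgEpiSCs-MPCs (difference 0.92 ± 0.20 SE, adjusted p = 0.000858). With a pseudocount of 0.1 the calls of *IRX1*, *IRX2*, *IRX3* and *IRX5* were lost (adjusted p of 0.0835 to 0.478). The step of *IRX5* was small, at 27.3, 34.4 and 33.4 TPM in pgEpiSCs-MCs, against 20.8 and 23.7 TPM in pgEpiSCs-MPCs (difference 0.49 ± 0.19 SE, adjusted p = 0.0348), and it did not pass without pgEpiSCs-MPCs replicate 1 (adjusted p = 0.183) or 2 (adjusted p = 0.0605) or without pgEpiSCs-MCs replicate 2 (adjusted p = 0.0971) or 3 (adjusted p = 0.0866).

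Set against MPC-Dif the family was uneven. *IRX1* was at 23.4, 28.2 and 26.3 TPM in pgEpiSCs-MCs and at 18.0, 23.2 and 21.4 TPM in MPC-Dif, a difference of 0.31 ± 0.19 (SE, adjusted p = 0.152) that did not pass the test, although it did in a fit of only these groups (adjusted p = 0.0263). *IRX3* and *IRX5* were well above MPC-Dif, where they stood at 2.18, 2.64 and 4.28 TPM and 1.28, 1.05 and 1.40 TPM, with differences of 3.50 and 3.86. *IRX6* was listed at 0 in all 3 MPC-Dif libraries (adjusted p = 1.43e-12). So was *IRX4*, with 0.657, 0.139 and 0.115 TPM in pgEpiSCs-MCs (adjusted p = 0.0265), and its call was lost without pgEpiSCs-MCs replicate 1 (adjusted p = 0.123) and without each MPC-Dif library in turn (adjusted p of 0.0524 to 0.0547). Another gene on the opposite strand overlaps *IRX3* in the annotation. Whether the counting used strand is not given in the sources used here, so reads of the 2 cannot be told apart. Opposite-strand genes also overlap *DLX6*, *LHX8*, *SIX3* and *SIX5*, and the same limit holds for their values.

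The *DLX* genes are known from the ventral forebrain, the branchial arches and bone. All 6 were higher in pgEpiSCs-MCs than in pgEpiSCs (50.8% of all tested genes were), with a median difference of 1.22 beside 0.27. In pgEpiSCs-MPCs 3 of 6 were higher than in pgEpiSCs, near the 47.5% of all tested genes. Between pgEpiSCs-MCs and pgEpiSCs-MPCs 5 of the 6 were higher (34.5%). The levels stayed below 5 TPM in the pgEpiSC-derived cells. *DLX4* was the highest of the 6, at 3.18, 4.99 and 3.56 TPM in pgEpiSCs-MCs, against 1.30 and 0.856 TPM in pgEpiSCs-MPCs (difference 1.23 ± 0.19 SE, adjusted p = 5.46e-05). *DLX2* was at 1.11, 3.37 and 2.51 TPM in pgEpiSCs-MCs and listed at 0 in every pgEpiSCs-MPCs and pgEpiSC library (adjusted p = 1e-05 against pgEpiSCs-MPCs). The call of *DLX3* against pgEpiSCs was the weakest, with 0.0780, 0.166 and 0.206 TPM in pgEpiSCs-MCs (adjusted p = 0.0363), and it was lost without any 1 of the pgEpiSC or pgEpiSCs-MCs libraries other than replicate 1 of pgEpiSCs-Low and of pgEpiSCs-MCs (adjusted p of 0.0511 to 0.116). In pgEpiSCs-MPCs the call of *DLX5* was lost without pgEpiSCs-MPCs replicate 2 (adjusted p = 0.312). That of *DLX6* was lost without pgEpiSCs-MPCs replicate 1 (adjusted p = 0.332) and without each pgEpiSC library in turn (adjusted p of 0.0515 to 0.0549).

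Between the 2 kinds of muscle culture 2 *DLX* genes were higher and 4 lower in pgEpiSCs-MCs (50.0% and 29.1% of all tested genes were). *DLX5* was at 1.34, 2.36 and 1.69 TPM and *DLX6* at 1.15, 1.16 and 0.595 TPM in pgEpiSCs-MCs, and both were listed at 0 in every MPC-Dif library (adjusted p = 7.93e-07 for *DLX5* and 6.23e-06 for *DLX6*). Of the other 4, *DLX4* was at 3.18, 4.99 and 3.56 TPM in pgEpiSCs-MCs, against 34.6, 29.5 and 34.9 TPM in MPC-Dif (difference -2.81 ± 0.17 SE, adjusted p = 1.74e-09), and *DLX3* at 0.0780, 0.166 and 0.206 TPM, against 5.41, 4.99 and 4.88 TPM in MPC-Dif (difference -2.41 ± 0.095 SE, adjusted p = 1.19e-11). *DLX2* was at 2.33 TPM on average in pgEpiSCs-MCs, against 8.10 TPM in MPC-Dif, and *DLX1* at 0.576 TPM, against 2.32 TPM. The genes are neighbours in pairs in the genome: *DLX5* and *DLX6* lie on chromosome 9 with 9.6 kb between them, *DLX3* and *DLX4* on chromosome 12 (16.6 kb) and *DLX1* and *DLX2* on chromosome 15 (8.9 kb).

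**Figure D3:**
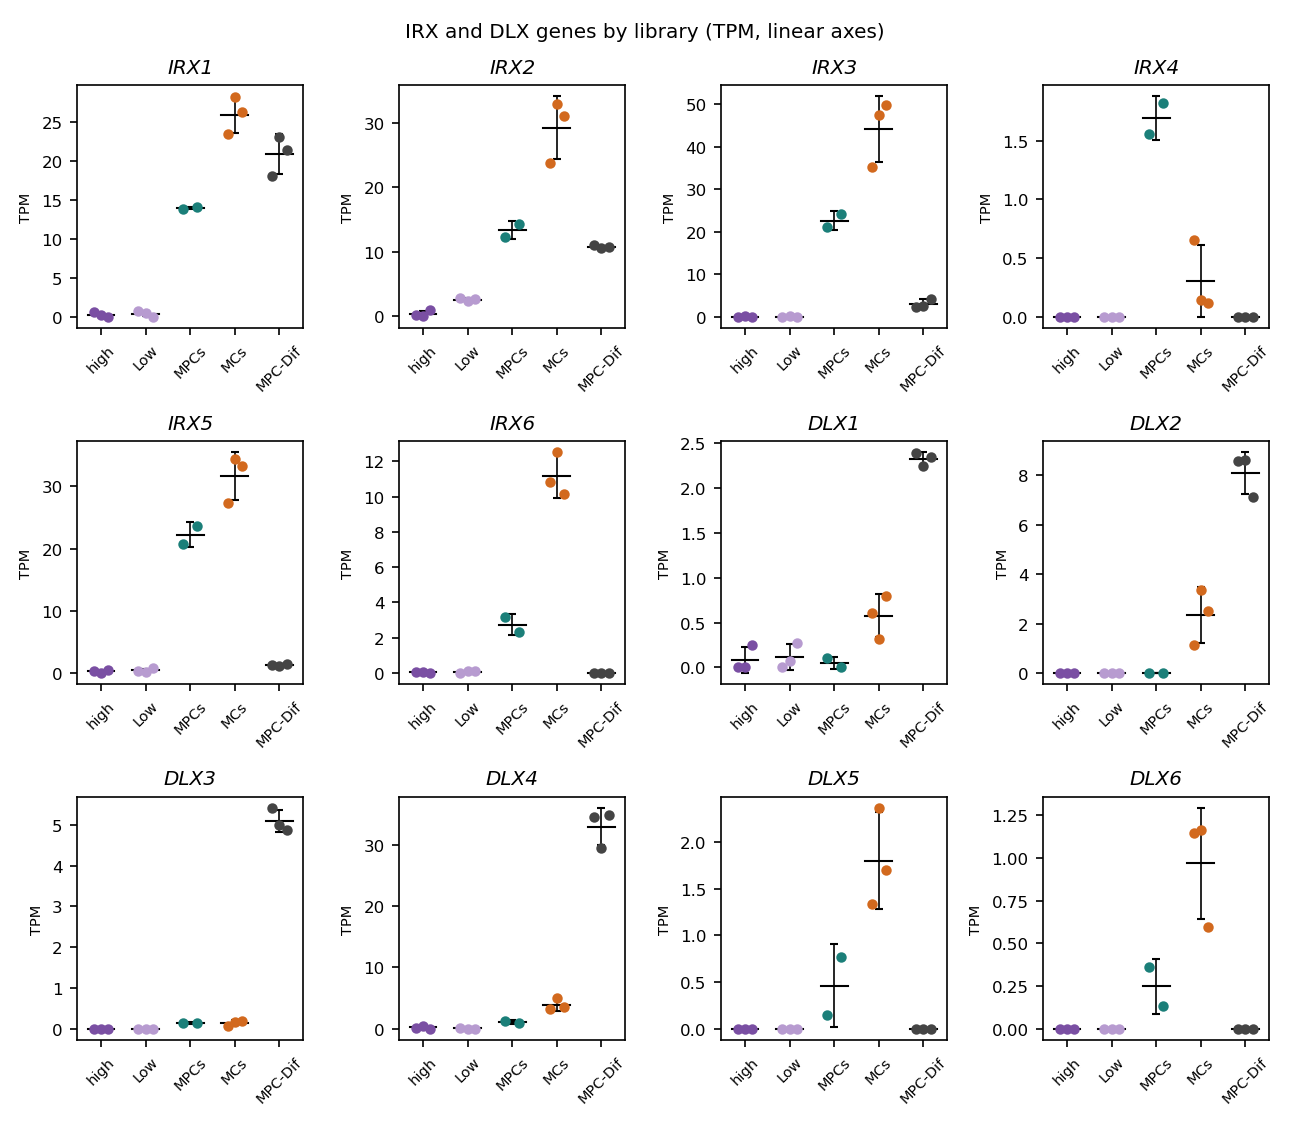
TPM of the 6 *IRX* and 6 *DLX* genes in each library (points, linear axes that differ between panels), with group means as lines and SDs as error bars. *IRX3*, *IRX5* and *IRX6* are high in both pgEpiSC-derived stages and low in MPC-Dif, and *DLX1* to *DLX4* are highest in MPC-Dif while *DLX5* and *DLX6* are listed at 0 there.

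For 3 genes of the paraxial mesoderm and somite, *TBX6*, *MEOX1* and *TBX18*, the larger difference lay between pgEpiSCs-MCs and pgEpiSCs-MPCs. A wider list of 17 genes of somites and muscle precursors had 8 higher and 5 lower in this step, with a median difference of 0.30. Over all tested genes 34.5% were higher and 36.1% lower, with a median of -0.0054. *TBX6*, a T-box gene of the presomitic mesoderm, was at 7.07 and 10.2 TPM in pgEpiSCs-MPCs, against 9.29, 7.12 and 6.63 TPM in pgEpiSCs-high and 13.2, 8.89 and 10.3 TPM in pgEpiSCs-Low, and this difference of -0.08 ± 0.17 (SE, adjusted p = 0.727) did not pass the test. It was at 34.7, 35.0 and 38.0 TPM in pgEpiSCs-MCs, above pgEpiSCs-MPCs (difference 1.95 ± 0.20 SE, adjusted p = 6.35e-07) and above the 3.96, 4.54 and 6.21 TPM of MPC-Dif (difference 2.66 ± 0.17 SE, adjusted p = 3.73e-09). *MEOX1*, a gene of the early somite, was listed at 0 in all pgEpiSCs. It was at 1.22 and 0.297 TPM in pgEpiSCs-MPCs (adjusted p = 0.000742 against pgEpiSCs) and at 18.1, 21.0 and 21.7 TPM in pgEpiSCs-MCs, a difference of 3.64 ± 0.18 (SE, adjusted p = 3.67e-10) between these stages. *TBX18*, which marks the anterior part of each somite and several mesenchymes, was at 8.60, 6.60 and 7.41 TPM in pgEpiSCs-MCs, against 0.156 and 0.412 TPM in pgEpiSCs-MPCs (difference 2.73 ± 0.15 SE, adjusted p = 1.52e-09). The 5 other paraxial mesoderm and somite markers in the table did not rise together. Their means in pgEpiSCs-MPCs and then pgEpiSCs-MCs were 120 and 114 TPM for *PAX3* and 3.59 and 2.99 TPM for *MESP2*. *TCF15* was at 0.870 and 0.428 TPM, *FOXC2* at 0 and 0.301 TPM and *UNCX* at 0.0275 and 0.444 TPM.

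The 2 *MEOX* genes stood in opposite order between the muscle cultures. *MEOX1* was at 18.1, 21.0 and 21.7 TPM in pgEpiSCs-MCs, against 2.59, 3.03 and 3.17 TPM in MPC-Dif (difference 2.43 ± 0.16 SE, adjusted p = 3.8e-09). *MEOX2*, which acts in limb muscle precursors and in vessels, was at 0.338, 0.574 and 0.119 TPM in pgEpiSCs-MCs, against 84.2, 85.8 and 78.9 TPM in MPC-Dif, the largest deficit of the 59 genes (difference -5.98 ± 0.14 SE, adjusted p = 4.1e-14). It had the highest level of all 59 genes in MPC-Dif and stayed at or below 0.574 TPM in every other library. *TBX18* was also lower in pgEpiSCs-MCs than in MPC-Dif, where it stood at 20.2, 18.6 and 17.8 TPM (difference -1.22 ± 0.14 SE, adjusted p = 1.39e-06).

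Between pgEpiSCs-MPCs and pgEpiSCs, 4 of the 10 SIX-family and *EYA* genes rose and 1 fell. Of all tested genes 47.5% were higher and 21.4% lower, so neither count stood above the share over all genes. *EYA2*, a cofactor with phosphatase activity that partners SIX-family proteins in muscle precursors, was at 33.2 and 28.3 TPM in pgEpiSCs-MPCs, against 0.762, 0.174 and 0.374 TPM in pgEpiSCs-high and 0.439, 0.511 and 0.728 TPM in pgEpiSCs-Low (difference 4.42 ± 0.15 SE, adjusted p = 6.68e-12). Its relative *EYA1* was at 4.73 and 4.68 TPM in pgEpiSCs-MPCs, against means of 0.525 TPM in pgEpiSCs-high and 0.529 TPM in pgEpiSCs-Low (difference 1.92 ± 0.15 SE, adjusted p = 6.81e-08). *SIX4*, which also acts in muscle precursors in mice, fell instead, with 18.2 and 16.1 TPM in pgEpiSCs-MPCs, against 30.6, 30.4 and 31.5 TPM in pgEpiSCs-high and 27.2, 30.4 and 29.2 TPM in pgEpiSCs-Low (difference -0.77 ± 0.083 SE, adjusted p = 1.47e-06). *SIX3*, a gene of the forebrain and eye, and *SIX5* were higher in pgEpiSCs-MPCs, at 8.92 and 9.21 TPM (difference 2.28 ± 0.18 SE, adjusted p = 6.05e-08) and 20.7 and 20.2 TPM (difference 2.09 ± 0.21 SE, adjusted p = 6.32e-07).

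*SIX2*, a gene of kidney progenitors and of head and limb mesenchyme, was at 1.68, 2.11 and 2.299 TPM in pgEpiSCs-MCs, against 0.104 and 0.182 TPM in pgEpiSCs-MPCs (difference 1.40 ± 0.14 SE, adjusted p = 4.29e-07). *EYA4* was higher too, at 3.09, 2.74 and 2.77 TPM in pgEpiSCs-MCs, against 1.05 and 0.678 TPM in pgEpiSCs-MPCs (difference 1.06 ± 0.21 SE, adjusted p = 0.000415, lost after quantile normalization). *EYA2* went the other way and was at 11.9, 10.8 and 11.7 TPM in pgEpiSCs-MCs (difference -1.34 ± 0.17 SE, adjusted p = 6.57e-06), as did *EYA3*, at 22.1, 21.7 and 20.1 TPM in pgEpiSCs-MCs, against 39.4 and 36.7 TPM in pgEpiSCs-MPCs (difference -0.81 ± 0.072 SE, adjusted p = 1.95e-07). *SIX4* was at 14.3, 13.3 and 13.3 TPM in pgEpiSCs-MCs and lower again (difference -0.31 ± 0.093 SE, adjusted p = 0.00856), a call that was lost without pgEpiSCs-MPCs replicate 1 (adjusted p = 0.102). The *SIX3* step, 0.53 ± 0.20 (SE, adjusted p = 0.0321), was lost without pgEpiSCs-MPCs replicate 1 or 2 (adjusted p = 0.121 and 0.0939) and without pgEpiSCs-MCs replicate 2 or 3 (adjusted p = 0.0793 and 0.0745).

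*SIX2* was far lower in pgEpiSCs-MCs than in MPC-Dif, at 1.68, 2.11 and 2.299 TPM in pgEpiSCs-MCs, against 19.8, 21.2 and 21.2 TPM in MPC-Dif (difference -2.85 ± 0.12 SE, adjusted p = 2.73e-11). *EYA2* stood the other way round, at 11.9, 10.8 and 11.7 TPM in pgEpiSCs-MCs, against 0.707, 1.17 and 0.869 TPM in MPC-Dif (difference 2.71 ± 0.15 SE, adjusted p = 5.96e-10). *EYA1* was at 4.11 ± 0.769 TPM in pgEpiSCs-MCs and 4.03 ± 0.174 TPM in MPC-Dif (SD, n = 3 each), a difference of 0.01 ± 0.15 (SE, adjusted p = 0.959) that did not pass the test with TPM as deposited but was -0.93 (adjusted p = 0.000106) after quantile normalization. *EYA4* likewise differed by 0.16 ± 0.19 (SE, adjusted p = 0.437) and by -0.85 (adjusted p = 0.00119) after quantile normalization, so no direction is given for either. *EYA2* overlaps an annotated non-coding gene on the opposite strand.

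**Figure D4:**
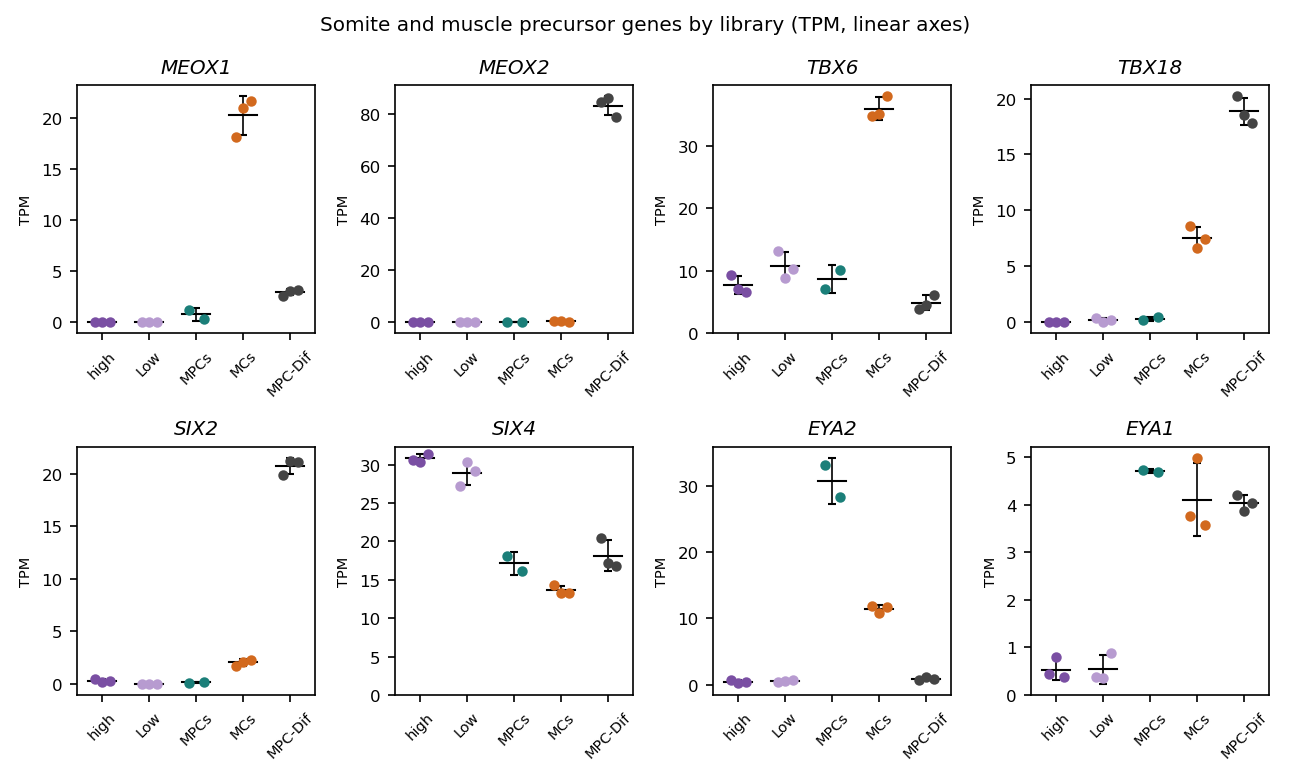
TPM of 8 genes of somites and muscle precursors in each library (points, linear axes that differ between panels), with group means as lines and SDs as error bars. *MEOX1* and *TBX6* are highest in pgEpiSCs-MCs, while *MEOX2*, *SIX2* and *TBX18* are highest in MPC-Dif.

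*PITX3*, known from midbrain dopamine neurons, lens and muscle, was at 1.74 and 2.29 TPM in pgEpiSCs-MPCs and listed at 0 in all pgEpiSCs (adjusted p = 6.44e-05). Its 3 pgEpiSCs-MCs libraries were spread over 0, 0.934 and 1.16 TPM, and the lower level than in pgEpiSCs-MPCs (difference -0.90 ± 0.28 SE, adjusted p = 0.0109) was lost without pgEpiSCs-MPCs replicate 2 (adjusted p = 0.0859). *PITX1*, a hindlimb gene, was at 1.16, 0.939 and 1.75 TPM in pgEpiSCs-MCs, against 6.80, 5.90 and 8.45 TPM in MPC-Dif (difference -1.82 ± 0.16 SE, adjusted p = 7.32e-08).

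None of the 7 *TBX* genes passed the limma test between pgEpiSCs-MPCs and pgEpiSCs with TPM as deposited, and the unadjusted p-values of all 7 lay above 0.05. Some alternatives did call one: *TBX6* was lower after quantile normalization (-0.54, adjusted p = 0.00941), *TBX18* and *TBX20* were higher with a pseudocount of 0.1 (adjusted p = 0.0225 and 0.00585), and *TBX18* was higher without pgEpiSCs-Low replicate 1 (adjusted p = 0.048). Between pgEpiSCs-MCs and pgEpiSCs-MPCs 4 were higher and 1 lower (34.5% and 36.1% of all tested genes were). Besides *TBX6* and *TBX18* these were *TBX2*, a repressor active in heart, limb and eye, at 0.768, 2.03 and 2.29 TPM in pgEpiSCs-MCs, against 0.0760 and 0 TPM in pgEpiSCs-MPCs (difference 1.33 ± 0.22 SE, adjusted p = 0.000107), and *TBX1*, a gene of pharyngeal mesoderm and head muscle. *TBX1* was at 1.31, 1.22 and 0.791 TPM in pgEpiSCs-MCs, against 0.486 and 0 TPM in pgEpiSCs-MPCs (difference 0.78 ± 0.20 SE, adjusted p = 0.00315), which was lost without pgEpiSCs-MPCs replicate 2 (adjusted p = 0.0721). *TBX10* was lower, at 0.182, 0 and 0 TPM in pgEpiSCs-MCs, against 1.08 and 0.632 TPM in pgEpiSCs-MPCs, and its call (adjusted p = 0.0163) was lost without pgEpiSCs-MPCs replicate 1 (adjusted p = 0.135).

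Of the 7 *TBX* genes, 2 were higher and 4 lower in pgEpiSCs-MCs than in MPC-Dif (50.0% and 29.1% of all tested genes were). *TBX3*, the close relative of *TBX2*, was at 0.168, 0 and 0.258 TPM in pgEpiSCs-MCs, against 12.6, 9.95 and 11.02 TPM in MPC-Dif (difference -3.42 ± 0.13 SE, adjusted p = 8.4e-12). *TBX2* was at 1.70 TPM on average in pgEpiSCs-MCs, against 12.8, 13.1 and 13.0 TPM in MPC-Dif (difference -2.42 ± 0.20 SE, adjusted p = 4.81e-08). *TBX20*, a heart gene, was at 0.221, 0.234 and 0.0970 TPM in pgEpiSCs-MCs, against 8.93, 3.57 and 4.61 TPM in MPC-Dif (difference -2.42 ± 0.21 SE, adjusted p = 6.73e-08), where 1 library was well above the other 2. *TBX1* was higher in pgEpiSCs-MCs than in MPC-Dif, where it stood at 0.276, 0.198 and 0.311 TPM (difference 0.73 ± 0.18 SE, adjusted p = 0.00188), but its difference was -0.15 (adjusted p = 0.471) after quantile normalization.

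The 4 *NKX* genes were low in the pgEpiSC-derived cells. *NKX3-2*, which marks the sclerotome and cartilage, was at 2.70, 5.29 and 3.65 TPM in pgEpiSCs-MCs, against 1.23 and 1.44 TPM in pgEpiSCs-MPCs (difference 1.03 ± 0.17 SE, adjusted p = 0.000107), and it was listed at 0 in pgEpiSCs. *NKX2-2*, a gene of the ventral neural tube and the endocrine pancreas, was at 1.15, 1.22 and 1.28 TPM in pgEpiSCs-MCs, against 16.3, 13.9 and 12.8 TPM in MPC-Dif (difference -2.78 ± 0.11 SE, adjusted p = 1.84e-11). *NKX2-3*, a gene of gut mesenchyme, was above 1 TPM in MPC-Dif alone, at 1.11, 1.06 and 1.31 TPM.

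The MEIS and PBX proteins are TALE homeodomain factors that bind DNA together with HOX and other homeodomain proteins. All 7 but *PBX2* stayed above 2 TPM in each library. *PBX3* was at 88.9 and 91.7 TPM in pgEpiSCs-MPCs, against 31.6, 26.2 and 33.4 TPM in pgEpiSCs-high and 19.4, 17.4 and 17.2 TPM in pgEpiSCs-Low (difference 1.91 ± 0.088 SE, adjusted p = 1.58e-10). *MEIS2* had the largest difference of the 7, at 35.2 and 33.9 TPM, against 5.21, 4.61 and 3.89 TPM in pgEpiSCs-high and 8.09, 4.70 and 5.32 TPM in pgEpiSCs-Low (difference 2.52 ± 0.15 SE, adjusted p = 3.21e-09). *MEIS3* was the one that fell, at 94.6 and 106 TPM in pgEpiSCs-MPCs, against 138, 131 and 126 TPM in pgEpiSCs-high and 145, 138 and 166 TPM in pgEpiSCs-Low (difference -0.48 ± 0.073 SE, adjusted p = 4.38e-05). In pgEpiSCs-MCs *MEIS3* was at 179, 191 and 181 TPM, the highest level of the 59 genes there, and above pgEpiSCs-MPCs by 0.87 ± 0.082 (SE, adjusted p = 3.37e-07). *MEIS1*, linked to the heart, blood and limb, was at 30.6, 27.9 and 28.9 TPM in pgEpiSCs-MCs, against 11.07 and 10.4 TPM in pgEpiSCs-MPCs (difference 1.36 ± 0.12 SE, adjusted p = 2.16e-07). Against MPC-Dif 6 of the 7 were higher in pgEpiSCs-MCs (50.0% of all tested genes were), led by *MEIS1* (2.95) and *MEIS3* (1.72). *MEIS2* was lower (difference -0.44 ± 0.15 SE, adjusted p = 0.0167), and its call was lost without pgEpiSCs-MCs replicate 2 (adjusted p = 0.0786) or MPC-Dif replicate 1 (adjusted p = 0.0522). *MEIS2* overlaps another annotated gene on its own strand.

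Over all 59 genes, pgEpiSCs-MCs were higher than MPC-Dif for 30 (50.0% of all tested genes were called higher) and lower for 19 (29.1%), and the median size of the difference, regardless of sign, was 1.35 beside 0.75 for all tested genes. The higher genes were led by *OTX2*, *EN2*, *OTX1* and *LHX1*. The lower ones included *MEOX2*, *TBX3* and *SIX2*. By family, 5 of 6 *EN*, *OTX* and *GBX* genes and 5 of 6 *IRX* genes were higher and none lower, while 4 of 7 *TBX* and 4 of 6 *DLX* genes were lower. After quantile normalization the difference of *GBX1* was -0.037 (adjusted p = 0.882), and over the 59 genes it gave 22 higher and 26 lower. The share of all calls that were lower was 36.8% with TPM as deposited, 49.6% after median-of-ratios scaling and 54.2% after quantile normalization.

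**Figure D5:**
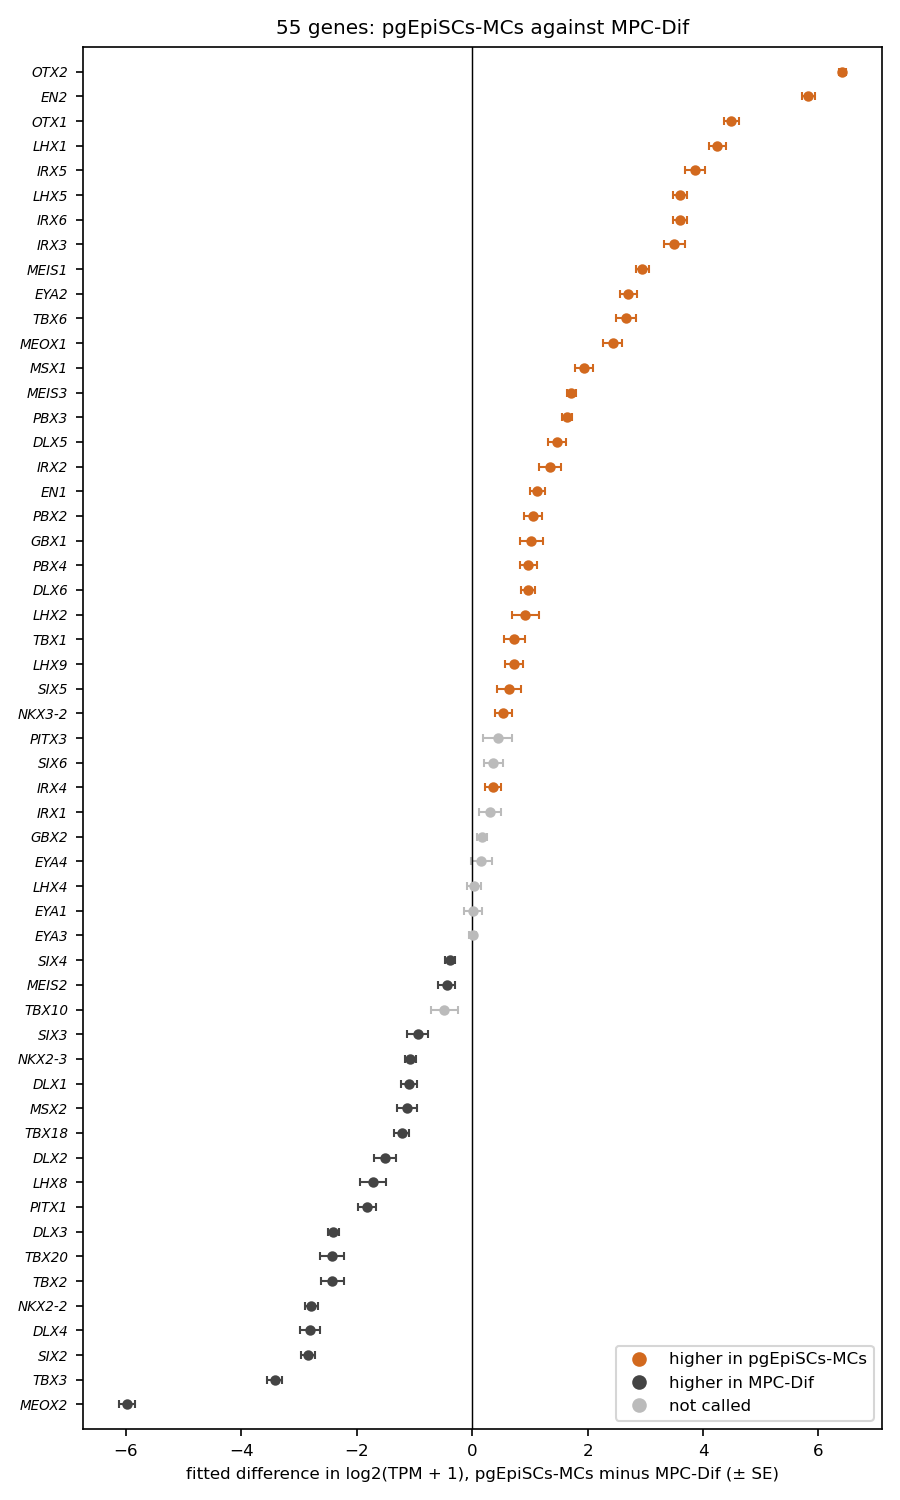
Fitted difference in log2(TPM + 1), pgEpiSCs-MCs minus MPC-Dif, for 55 of the 59 genes (points, bars ± SE), orange where called higher in pgEpiSCs-MCs, dark grey where called higher in MPC-Dif and light grey where not called. *OTX2* lies at 6.41 and *MEOX2* at -5.98, and for genes listed at 0 in MPC-Dif, such as *EN2*, the position depends on the pseudocount of 1.

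Of the 59 genes, 10 were called between passages. In pgEpiSCs-high against pgEpiSCs-Low, 3 of the 59 were higher (8.36% of all tested genes) and 7 lower (15.7%). In a fit of only these groups, 23 of the 59 genes passed the filter on level, as did 13104 genes in all. The other members were tested because of their level in other groups. The count of calls is therefore no measure of how alike the passages were. The lower genes were led by *LHX5*. *IRX2* was at 0.241, 0 and 0.931 TPM in pgEpiSCs-high, against 2.81, 2.33 and 2.67 TPM in pgEpiSCs-Low (difference -1.43 ± 0.19 SE, adjusted p = 0.000147), and *SIX5*, a neighbour of the myotonic dystrophy kinase gene in mammals, was at 3.77, 2.02 and 1.36 TPM, against 5.64, 7.42 and 7.65 TPM in pgEpiSCs-Low (difference -1.28 ± 0.21 SE, adjusted p = 0.000609). *OTX2* was at 205, 205 and 225 TPM in pgEpiSCs-high, against 303, 305 and 321 TPM in pgEpiSCs-Low (difference -0.55 ± 0.058 SE, adjusted p = 1.84e-05). No library of one passage overlapped the other for these 4 genes, which was so for 23.7% of the 59 genes and 35.7% of all tested genes. Both shares include genes that did not pass the filter in the passages alone. *LHX1* was higher, at 2.98, 2.13 and 2.86 TPM in pgEpiSCs-high, against 1.18, 0.469 and 0.796 TPM in pgEpiSCs-Low (difference 1.02 ± 0.15 SE, adjusted p = 0.000256), so that the close relatives *LHX1* and *LHX5* moved in opposite directions. *PBX3* was also higher, at 31.6, 26.2 and 33.4 TPM in pgEpiSCs-high, against 19.4, 17.4 and 17.2 TPM in pgEpiSCs-Low (difference 0.72 ± 0.088 SE, adjusted p = 6.11e-05).

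Of the other 4 passage calls, 3 are given here with the libraries they rest on. *MSX2* was higher in pgEpiSCs-high (difference 0.65 ± 0.17 SE, adjusted p = 0.0149), a call lost without pgEpiSCs-Low replicate 1 (adjusted p = 0.0613) or 2 (adjusted p = 0.0617). *MEIS1* was lower (difference -0.43 ± 0.11 SE, adjusted p = 0.0127) and lost its call without pgEpiSCs-high replicate 2 (adjusted p = 0.0568). *PBX4* was lower (difference -0.51 ± 0.14 SE, adjusted p = 0.0193), lost without pgEpiSCs-Low replicate 1 (adjusted p = 0.0682) or 3 (adjusted p = 0.0792) or pgEpiSCs-high replicate 1 (adjusted p = 0.0519) or 3 (adjusted p = 0.0548). Over all tested genes the share of lower calls was 65.2% with TPM as deposited, 46.2% after median-of-ratios scaling and 48.2% after quantile normalization.

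Of the 59 genes, 13 lie within 500 kb of another and form 6 groups on the Sscrofa11.1 map. *SIX4* and *SIX6* share a group on chromosome 1. *SIX4* had its highest mean in pgEpiSCs-high (30.8 TPM). *SIX6* was low in every group. Its highest mean, in pgEpiSCs-MCs (0.646 TPM), came from libraries that overlapped those of other groups, so the peaks of this pair cannot be compared. On chromosome 3, *SIX2* and *SIX3* are 57.9 kb apart and were both highest in MPC-Dif, at 20.7 ± 0.777 TPM and 27.0 ± 2.71 TPM (SD, n = 3). *IRX5* and *IRX6* on chromosome 6 are 306.7 kb apart and were both highest in pgEpiSCs-MCs, at 31.7 ± 3.86 TPM and 11.2 ± 1.24 TPM (SD, n = 3), and *IRX3*, 529.9 kb beyond *IRX5* and so outside the limit, was highest there too at 44.1 ± 7.73 TPM.

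Grouped by role, the genes gave the following counts. Of 14 tested genes that mark regions along the neural tube, 11 were higher and 2 lower in pgEpiSCs-MPCs than in pgEpiSCs, with a median difference of 3.13, beside 47.5% and 21.4% of all tested genes and a median of 0.24. Of 7 tested genes of neural tube progenitor and neuron classes, 2 were higher and 1 lower, with a median of -0.059. Of 17 genes of somites and muscle precursors, 8 were higher and 2 lower, with a median of 0.23, so that neither the share of higher genes nor the median stood apart from that of all tested genes. In pgEpiSCs-MCs against pgEpiSCs the somite and muscle list had 13 higher and 2 lower and a median of 1.74, beside 50.8% higher, 30.9% lower and a median of 0.27 for all tested genes. The neural tube region list had 11 of 14 higher and 1 lower in that comparison, with a median of 3.29. The list of neuron classes had 5 of 7 higher and none lower, with a median of 1.09. For the same comparison, 10 of 11 genes of limb, body wall and connective tissue were higher and none lower, 9 of 10 genes of the neural plate border and placodes were higher and 1 lower, and 3 of 6 heart and vessel genes were higher, a share close to that of all tested genes, and none lower. The lists share genes. Markers of other cell types moved with the same groups. The 6 smooth muscle markers summed to 4791 to 4953 TPM in pgEpiSCs-MCs, against 1930 to 2014 TPM in pgEpiSCs-MPCs, and to 4154 to 5274 TPM in MPC-Dif. The 8 fibroblast and mesenchyme markers in the table summed to 14897 to 16175 TPM in pgEpiSCs-MCs, against 128 to 131 TPM in pgEpiSCs-MPCs, and to 26204 to 27191 TPM in MPC-Dif. Transcripts of the mitochondrial genome took 6.07% to 6.61% of the total in pgEpiSCs-MCs and 15.8% to 17.1% in pgEpiSCs-MPCs, against 19.8% to 24.9% in pgEpiSCs. Their share in MPC-Dif was 6.74% to 7.10%. The part of these in the results was not tested, other than by leaving the mitochondrial genes out.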

How the data were processed

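Poly(A) RNA of 14 pig libraries in 5 groups was measured. Per the labels and the study's methods, the authors trimmed reads with Trim Galore, aligned them to Sscrofa11.1 with HISAT2, counted them with featureCounts and converted the counts to TPM in R before depositing 1 table. The strand setting of the counting is not given in the sources used here. The deposited TPM values hold no read depth, so no counting error is given.

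Here log2(TPM + 1) was fitted with limma 3.58.1 in R 4.3.3, with all 5 groups in 1 fit, an intensity trend and no batch term. In comparisons with pgEpiSCs both passages had equal weight. Genes above 0.5 TPM in at least 50% of the libraries of a group were kept, p-values were Benjamini-Hochberg adjusted over all genes kept, and a gene was called below 0.05. Values in every library are given for called members whose libraries do not overlap and that rank among the 8 largest rises or falls in the steps from pgEpiSCs to pgEpiSCs-MPCs and on to pgEpiSCs-MCs, or among the 4 largest either way in the other comparisons, for *OTX2* and for somite and muscle members. Other members were named by family, after their values were seen. Members, lists and tests were chosen with earlier results of these data known. Alternatives were other pseudocounts (0.1 and 0.5), no filter or a minimum of 2 TPM, median-of-ratios scaling, quantile normalization, mitochondrial genes left out, only the groups compared, no intensity trend, 1 passage alone, a replicate block and each library left out in turn. Same-numbered libraries of different groups did not deviate together (26 pairs, correlations of -0.15 to 0.13), so the numbers were not taken to pair them. The values of 4 members and 1 promoter sequence are not reported here. Promoter sequences and coordinates are from RefSeq on Sscrofa11.1.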

Additional observations from a re-analysis of the deposited data

How the results depend on the processing

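Of the calls among the 59 genes, 30 of 38 for pgEpiSCs-MPCs against pgEpiSCs, 31 of 45 for pgEpiSCs-MCs against pgEpiSCs-MPCs, 38 of 48 for pgEpiSCs-MCs against pgEpiSCs, 40 of 49 for pgEpiSCs-MCs against MPC-Dif and 6 of 10 for pgEpiSCs-high against pgEpiSCs-Low held under every alternative run other than the minimum of 2 TPM, which left 51 of the genes to test. Leaving out each library in turn gave, in the same order of comparisons, 31 to 33 higher and 6 to 7 lower, 24 to 27 and 15 to 18, 42 to 45 and 3 to 4, 29 to 31 and 18 to 20, and 2 to 4 and 5 to 8. With the replicate block the counts were 31 and 6, 26 and 18, 43 and 4, 31 and 19, and 3 and 7. Quantile normalization gave 9 genes lower in pgEpiSCs-MCs than in pgEpiSCs, against 4 with TPM as deposited, and a pseudocount of 0.1 gave 5 genes higher in pgEpiSCs-high, against 3. Directions turned for *LHX5* (0.52 in pgEpiSCs-MPCs and 0.91 in pgEpiSCs-MCs) and *OTX2* (0.014 in pgEpiSCs-MPCs) against pgEpiSCs-high alone. After quantile normalization they turned for *EYA1* (-0.93), *EYA3* (-0.30, and -0.33 after median-of-ratios scaling), *EYA4* (-0.85), *LHX9* (-0.21), *NKX3-2* (-0.48), *SIX6* (-0.42), *TBX1* (-0.15) and *GBX1* (-0.037) in pgEpiSCs-MCs against MPC-Dif and for *GBX1* (-0.25) and *PBX2* (-0.68) in pgEpiSCs-MCs against pgEpiSCs. The cause was not tested. The number of libraries, 2 in pgEpiSCs-MPCs, and levels under 1 TPM limit what these values can show.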

Other observations

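Homeobox and T-box genes outside the families above, with the cofactors that bind them, gave 50 further genes in the table. Their calls come from the same fit as above. In pgEpiSCs-MPCs against pgEpiSCs 30 were higher and 10 lower (47.5% and 21.4% of all tested genes were), and in pgEpiSCs-MCs against MPC-Dif 31 were higher and 9 lower (50.0% and 29.1%). *LMX1A*, a gene of the roof plate and of midbrain dopamine neurons, was at 112 and 113 TPM in pgEpiSCs-MPCs, against 0.273, 0.633 and 0.905 TPM in pgEpiSCs-high and 2.40, 1.57 and 2.27 TPM in pgEpiSCs-Low (difference in log2(TPM + 1) 5.69 ± 0.15 SE, adjusted p = 5.37e-13). *POU3F3*, a brain gene of the POU family, was at 45.9, 58.9 and 69.2 TPM in pgEpiSCs-MCs and 42.5 and 39.0 TPM in pgEpiSCs-MPCs, and it was listed at 0 in all pgEpiSCs and MPC-Dif libraries.

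*HESX1*, an anterior gene that is active in the epiblast of mice, was at 53.4, 52.7 and 61.9 TPM in pgEpiSCs-high, against 90.3, 87.5 and 86.8 TPM in pgEpiSCs-Low (difference -0.65 ± 0.15 SE, adjusted p = 0.00791). *PRRX1*, a gene of limb and connective tissue mesenchyme, was at 175, 162 and 165 TPM in pgEpiSCs-MCs, against 2.78 and 3.19 TPM in pgEpiSCs-MPCs (difference 5.40 ± 0.11 SE, adjusted p = 6.99e-14) and against 337, 313 and 306 TPM in MPC-Dif (difference -0.93 ± 0.096 SE, adjusted p = 5.7e-07). It was at 53.8, 47.1 and 50.9 TPM in pgEpiSCs-high and 68.3, 67.6 and 51.3 TPM in pgEpiSCs-Low. Its relative *PRRX2* was at 51.7, 60.3 and 55.1 TPM in pgEpiSCs-MCs, against 266, 252 and 324 TPM in MPC-Dif (difference -2.31 ± 0.26 SE, adjusted p = 1.66e-06). *EMX2* and *SHOX2* were also lower in pgEpiSCs-MCs, with *EMX2* at 1.94 TPM on average, against 31.4 TPM in MPC-Dif, and *SHOX2* at 2.82 TPM, against 34.0 TPM in MPC-Dif.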
